A study of Rattus norvegicus with 4 samples.

Results

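The levels of 10 genes that mark the lining of blood vessels were followed across 4 microarrays of rat vessels: Pecam1, Cdh5, Vwf, Tek, Tie1, Kdr, Flt1, Eng, Cldn5 and Sox17. The rule lists them by gene name and uses no measured value, though the set was drawn up with earlier results of these data known. Every array probe whose RefSeq accession maps to 1 of these symbols was read. This gave 12 probes for the 10 genes, among 16580 genes that carry a name on the array. The vessels came from male Wistar rats (WT) or from male rats that lack protein kinase C beta (PKCbeta deletion, KO), and those of either genotype had been given angiotensin II (Ang II) or not. The 4 groups are called untreated WT, treated WT, untreated KO and treated KO, and the plots mark them ctl and Ang II. Treatment lasted 24 h, and the design names 4 rats of each genotype. There was 1 array per group, labelled with Cy3 in 1 colour. The labels do not say whether an array held RNA of 1 rat or of several, which vessel was taken, how old the rats were, whether the vessels were treated in the animal or in culture, or how the deletion was made.

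Endothelial cells form the inner lining of all blood vessels. Their growth and survival depend on vascular endothelial growth factor (VEGF), which acts through the receptor tyrosine kinases KDR (VEGFR2) and FLT1 (VEGFR1), and on angiopoietins, which act through TEK (TIE2) with TIE1 as its partner. Endoglin (ENG) is a coreceptor for ligands of the TGF-beta and BMP family, PECAM1, VE-cadherin (CDH5) and claudin 5 (CLDN5) hold neighbouring endothelial cells together, von Willebrand factor (VWF) is the adhesive clotting protein that these cells store, and SOX17 is a transcription factor of arterial endothelium.

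The level used throughout is the log2 processed signal minus the 75th percentile of log2 processed signals on the same array, so that 0 is that percentile and 1 unit is a doubling. Each probe has its own response, so a level is compared only with the same probe on another array. The ± after a level is the scanner's own error of that spot (SE), which is technical and holds no variation between rats. With 1 array per group no single comparison between groups can be tested. Ratios are therefore described by size, with 1.5-fold and 2-fold as the sizes counted, and counts of the markers are set beside the share of all genes that reach the same size. A gene that was well above background on a single side of a comparison enters at a bound, with the dim side set to the lowest signal well above background on its array or to its own signal if higher. In whole tissue, fewer endothelial cells and less RNA per endothelial cell cannot be told apart.

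Between 40.7% and 43.6% of probes were well above background on each array, no spot was saturated, and the 75th percentile ranged from 47.3 to 62.4 intensity units. All 4 arrays lay on 1 slide in the order of the groups, so position on the slide and group cannot be told apart. The deleted gene, Prkcb, checks the genotype labels but not those of treatment. Its brightest probe, with 10 spots, had mean signals of 14.8 in untreated WT and 18.02 in treated WT, both well above background. Neither KO array was well above background, at 1.94 untreated and 1.89 treated. A second, dimmer Prkcb probe was well above background in treated WT alone, at 12.2. It read 8.27 in untreated WT, 1.90 in untreated KO and 1.73 in treated KO.

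RefSeq's table of rat promoters (build GRCr8) held 5 of the 10 genes: Tie1, Kdr, Flt1, Eng and Cldn5. The promoters of 3 of them are printed because the results below turn on Kdr and Cldn5, and because Flt1 encodes the other VEGF receptor. Each is the 250 bases before the annotated start, 5′ to 3′ on the strand of the gene. The capitals mark matches on either strand to the GC box GGGCGG, which binds SP-family factors, and to the ETS cores CCGGAA and AGGAAG, which endothelial ETS factors such as ERG and FLI1 recognise.
Kdr, chr14:32571813-32572062, plus strand: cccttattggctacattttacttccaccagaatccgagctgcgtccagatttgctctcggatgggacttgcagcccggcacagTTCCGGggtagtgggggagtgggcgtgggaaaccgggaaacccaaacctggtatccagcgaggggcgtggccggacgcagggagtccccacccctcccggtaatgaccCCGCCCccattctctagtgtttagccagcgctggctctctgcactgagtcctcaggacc
Flt1, chr12:12333180-12333429, plus strand: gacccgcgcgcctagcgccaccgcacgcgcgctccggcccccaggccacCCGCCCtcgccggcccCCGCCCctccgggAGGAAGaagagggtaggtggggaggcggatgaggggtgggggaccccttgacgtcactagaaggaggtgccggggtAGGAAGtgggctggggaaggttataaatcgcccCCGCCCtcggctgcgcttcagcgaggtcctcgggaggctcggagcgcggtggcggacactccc
Cldn5, chr11:95718599-95718848, minus strand: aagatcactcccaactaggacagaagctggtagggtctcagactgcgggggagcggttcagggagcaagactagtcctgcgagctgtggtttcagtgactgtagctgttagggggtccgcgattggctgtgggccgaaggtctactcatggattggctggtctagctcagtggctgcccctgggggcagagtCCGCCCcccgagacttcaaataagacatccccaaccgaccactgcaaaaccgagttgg

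Kdr held 1 GC box and 1 CCGGAA core, both on the minus strand of the gene. Flt1 held 3 GC boxes, 2 AGGAAG cores and the TATA box letters TATAAA, and Cldn5 held 1 GC box and neither ETS core. Among the 27457 promoters of the table, searched over the same length on both strands, 32.4% held GGGCGG, 13.4% CCGGAA, 29.4% AGGAAG and 13.1% TATAAA. The letters CCACCC, present in 26.6% of promoters, occurred in Tie1, Kdr, Flt1 and Eng, and in Flt1 a CCACCC match overlapped a GC box. None of the 5 held AACAAT, the core of SOX sites (10.3% of promoters), TGANTCA, the AP-1 site (6.36%), or AGATAA, a core bound by zinc-finger factors such as GATA2 (10.05%). GC content was 61.6% for Kdr, 73.2% for Flt1 and 58.4% for Cldn5, beside a median of 52.0% over all promoters. A match describes the letters only, and binding was not measured.

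Of the 10 genes, 8 were well above background on all 4 arrays, each with 1 spot per probe. Tie1, Sox17 and a second, dimmer probe of Flt1 were not well above background on any array. The vessel RNA thus carried measurable signal for the VEGF receptors, TEK, endoglin, the 3 junction genes and VWF, whereas TIE1 and the arterial factor SOX17 could not be compared. The processed signals of the Tie1 probe were between 2.02 and 3.71 intensity units and those of the Sox17 probe between 1.77 and 3.48. Other pan-endothelial genes were also present: 16 of the 19 on the array were detected above background at least once, and Emcn, Cyyr1 and Gpihbp1 never were.

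**Figure D1:**
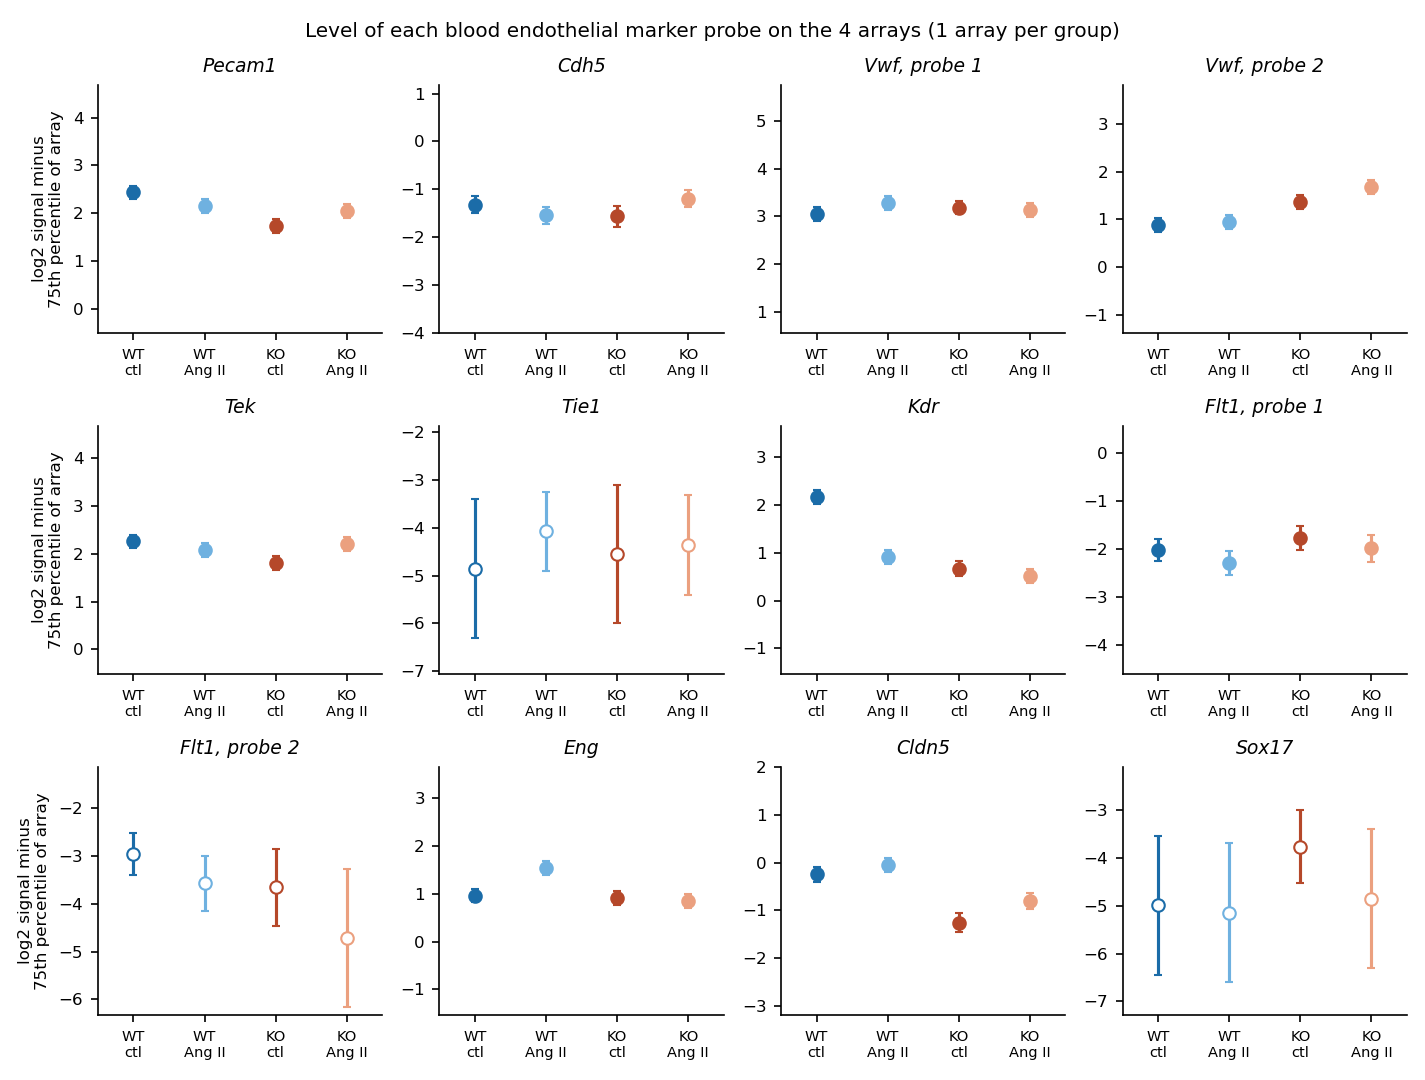
Level of each of the 12 probes (log2 signal minus the 75th percentile of the array, y axis, the same span in every panel) on the 4 arrays (x axis), with 1 point per array and bars of 1 scanner SE. Filled points are well above background and open points are not. Kdr stands at 2.16 on the untreated WT array and between 0.51 and 0.91 on the other 3, and Cldn5 is lower on both KO arrays than on both WT arrays.

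Kdr, the main signalling receptor for VEGF-A on endothelial cells, varied most among the markers. Its level was 2.16 ± 0.14 in untreated WT, 0.91 ± 0.15 in treated WT, 0.67 ± 0.15 in untreated KO and 0.51 ± 0.15 in treated KO (SE, 1 spot each). The untreated WT array alone was high, and the other 3 arrays lay close together. Only the step from untreated WT to treated WT was larger than 2 combined scanner errors, whereas the steps from treated WT to untreated KO and from untreated KO to treated KO were not. The spread of 1.65 log2 units over the 4 arrays was exceeded by 141 of the 8600 genes measured on all 4 (1.64%).

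Kdr was 2.81-fold lower in KO than in WT without Ang II (log2 ratio -1.49 ± 0.21), a ratio below that of all but 1.09% of the 9582 genes compared. It was 2.38-fold lower in WT with Ang II than without (log2 ratio -1.25 ± 0.21), at position 50 from the lowest of 9812 genes. Both of these ratios use the same untreated WT spot. The KO arrays with and without Ang II differed by -0.16 ± 0.21, within the scanner's error, and KO against WT with Ang II gave -0.40 ± 0.21. Over all 8600 genes measured on the 4 arrays, 8 were at least 2-fold higher on untreated WT than on each of the other 3 arrays (0.0930%), and Kdr was the only marker among them. Kdr stayed at least 2-fold above the other arrays on untreated WT under every alternative processing tried, with a smallest gap of 1.06 log2 units after normexp background correction and a largest of 1.30. Kdr has only 1 probe and 1 spot, so neither a second probe nor a second array bears on the untreated WT value.

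Flt1, which binds VEGF tightly and signals weakly, was dim. Its measured probe stood at -2.02 ± 0.22 in untreated WT, -2.29 ± 0.26 in treated WT, -1.77 ± 0.25 in untreated KO and -1.99 ± 0.28 in treated KO. Both KO arrays were above both WT arrays, but no step between neighbours in this order exceeded 2 combined scanner errors. Its ratios lay between -0.27 and 0.30 in the 4 comparisons, each with an SE between 0.34 and 0.38. Kdr and Flt1 thus stood in a different order over the arrays, and with 1 array per group the difference between them was not tested.

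The VEGF ligands and coreceptors gave 6 measured genes of the 7 on the array. Vegfa, the main ligand of KDR, was 1.51-fold lower in KO than in WT without Ang II (log2 ratio -0.60) and stood at 0.30 with Ang II. Ang II gave -0.40 for Vegfa in WT and 0.49 in KO. Without Ang II, Vegfb had a KO to WT ratio of 0.35, the coreceptor Nrp2 -0.31 and the FLT1 ligand Pgf -0.18. All 6 genes were below 0 for Ang II in WT, as were 44.9% of all genes, with a median of -0.17, and 3 of the 6 were below 0 in KO. Vegfa was the only 1 of the 6 past 1.5-fold in any of the 4 comparisons.

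Tek, the receptor for angiopoietins, was at 2.26 ± 0.14 in untreated WT, 2.08 ± 0.14 in treated WT, 1.80 ± 0.15 in untreated KO and 2.20 ± 0.14 in treated KO. The untreated KO array was the lowest, and no step between neighbours exceeded 2 combined errors. Its KO to WT ratio was -0.46 ± 0.21 without Ang II and 0.12 ± 0.20 with it. Among its partners, Angpt1, the activating ligand, had KO to WT ratios of 0.18 and -0.08. Angpt2, the context-dependent antagonist made by endothelial cells, was well above background on both WT arrays and on neither KO array. Named after its values were seen, its KO level was below that of WT by at least 2.28-fold in untreated and by at least 2.25-fold in treated vessels. Foxo1, a transcription factor restrained by TEK signalling, stayed between -0.12 and 0.06 in the 4 comparisons.

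Eng was at 0.96 ± 0.15 in untreated WT, 1.53 ± 0.15 in treated WT, 0.91 ± 0.15 in untreated KO and 0.85 ± 0.15 in treated KO. Here treated WT alone was high, by more than 2 combined scanner errors over untreated WT, and the other 3 arrays lay within error of each other. Ang II gave a ratio of 0.57 ± 0.21 in WT (1.49-fold higher) and -0.06 ± 0.21 in KO. KO against WT was -0.06 without Ang II and -0.69 ± 0.21 with it (1.61-fold lower), the latter -0.47 after normexp background correction and then short of 1.5-fold. The signalling receptor that works with endoglin, ALK1 (Acvrl1), stood at -0.02 and 0.23 in the same comparisons. With Ang II, the type II receptor Bmpr2 was 2.29-fold lower in KO and the BMP target Id1 2.22-fold lower, Id2 was at -0.77 and Smad4 at 0.75. Over the 9 genes of this pathway compared with Ang II, 4 were at least 1.5-fold lower and 2 at least 1.5-fold higher in KO, sizes that 15.8% and 9.21% of all genes reached.

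Among the junction genes, Cldn5, the tight junction protein of endothelium, had the clearest KO and WT separation. It was at -0.25 ± 0.15 in untreated WT, -0.05 ± 0.15 in treated WT, -1.26 ± 0.19 in untreated KO and -0.81 ± 0.17 in treated KO. Both KO arrays lay below both WT arrays, and the step between the pairs was larger than 2 combined scanner errors. KO was 2.01-fold lower than WT without Ang II (log2 ratio -1.01 ± 0.25) and 1.69-fold lower with it (-0.76 ± 0.23). After normexp, which adds an offset of 50 to each signal, the ratios were -0.22 and -0.26, with the same direction but short of 1.5-fold. The processed signals of Cldn5 were 49.4 in untreated WT, 60.3 in treated WT, 19.8 in untreated KO and 29.8 in treated KO. At such signals an added 50 shrinks a ratio by itself. This setting therefore cannot tell whether the size depends on background correction. Ang II gave 0.20 ± 0.22 in WT and 0.45 ± 0.26 in KO.

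Pecam1, an adhesion receptor at endothelial contacts, was at 2.43 ± 0.14 in untreated WT, 2.14 ± 0.14 in treated WT, 1.74 ± 0.15 in untreated KO and 2.05 ± 0.14 in treated KO. It was 1.62-fold lower in KO than in WT without Ang II (log2 ratio -0.70 ± 0.20) and level with WT under Ang II (-0.09 ± 0.20). Cdh5, the adherens junction cadherin specific to endothelium, stayed within a narrow band. It was at -1.32 ± 0.18 in untreated WT, -1.55 ± 0.18 in treated WT, -1.57 ± 0.21 in untreated KO and -1.20 ± 0.18 in treated KO, with KO to WT ratios of -0.25 ± 0.28 and 0.35 ± 0.25. Differences among the 3 junction genes were not tested.

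The proteins that these junctions bind or anchor to gave 12 genes compared. Of these, 8 were below 0 in KO without Ang II, with 4 at least 1.5-fold lower and none at least 1.5-fold higher, and the median was -0.40. Among the 4, 2 entered at a bound, and 1 of these, Esam, is also counted among the other pan-endothelial genes. Of all genes 49.5% were below 0, 13.0% at least 1.5-fold lower and 11.1% at least 1.5-fold higher. The largest measured ratios were -0.83 for Tjp1 (ZO-1, the scaffold under tight junctions), -0.73 for Afdn (afadin), -0.47 for Ctnnd1 (p120 catenin, which holds VE-cadherin at the membrane) and -0.47 for Jam2. With Ang II the median was -0.20 and Tjp1 stood at -1.11.

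Vwf had 2 probes that did not give the same picture. The brighter one was the steadiest of the 8 measured markers, at 3.05 ± 0.14 in untreated WT, 3.28 ± 0.14 in treated WT, 3.19 ± 0.14 in untreated KO and 3.13 ± 0.14 in treated KO. Its spread of 0.23 log2 units was smaller than that of 85.8% of the genes measured on all 4 arrays. The dimmer probe was at 0.89 ± 0.15, 0.95 ± 0.15, 1.37 ± 0.15 and 1.69 ± 0.15 in the same order, with both KO arrays above both WT arrays. The KO to WT ratios were 0.14 and -0.15 by the brighter probe against 0.48 and 0.74 by the dimmer one. Where 2 probes of a gene were both measured, their KO to WT ratios differed by a median of 0.27 in untreated and 0.32 in treated vessels (1660 and 1707 genes), and the gap between the Vwf probes was wider in both comparisons. Of the genes for storage and clotting partners of VWF, 7 were compared. Without Ang II none was past 1.5-fold in KO against WT, with a median of -0.18. With Ang II, Plat (tissue plasminogen activator, stored in endothelial cells) was at -1.34 and Tfpi (tissue factor pathway inhibitor) at -0.96. These were the 2 of 7 at least 1.5-fold lower, beside 15.8% of all genes, while 3 of the 7 were above 0 and the median was -0.14.

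Sox17 itself could not be read, but its close relatives could. Sox7 was at -0.20, -0.14, -1.34 and -0.80 in untreated WT, treated WT, untreated KO and treated KO, and Sox18 at 1.57, 1.39, 0.73 and 1.06. Both were lower on both KO arrays than on both WT arrays, with KO to WT ratios without Ang II of -1.13 and -0.85. The ETS factor Erg, a general driver of endothelial genes, was nearer to level, at -0.24 and -0.16. Among the other endothelial transcription factors, Foxc1 was higher on both KO arrays than on both WT arrays. Of 12 endothelial transcription factors compared without Ang II, 9 were below 0 in KO (49.5% of all genes were) and 3 above 0, the highest at 0.48. None was at least 1.5-fold higher, beside 11.1% of all genes, and 2 were at least 1.5-fold lower. Of 12 arterial genes, 3 were lower by at least 1.5-fold in untreated KO. That size was reached by 13.0% of all genes, so the count of transcription factors is near the background. Among the arterial genes Gja5, a connexin of arterial endothelium, had the largest ratio at -1.66, followed by the guidance receptor Unc5b at -0.81, the Notch ligand Jag1 at -0.64 and Gja4, another connexin, at 0.52.

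**Figure D2:**
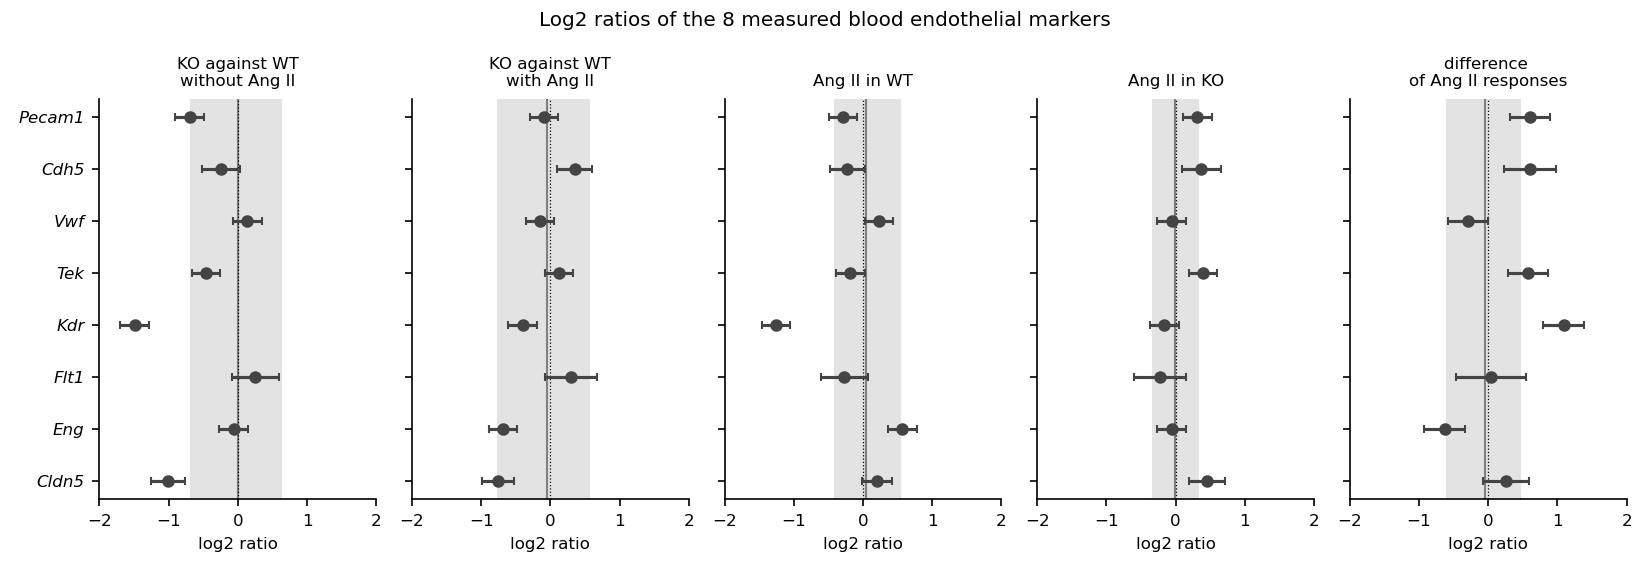
Log2 ratio (x axis) of the 8 measured markers (rows) in the 4 comparisons and, at the right, the Ang II response in KO minus that in WT; bars are 1 combined scanner SE. The grey band runs from the 10th to the 90th percentile of all genes compared and the grey line is their median. Kdr and Cldn5 lie well below the band in the left panel with Pecam1 at its edge, and Kdr alone lies below it for Ang II in WT.

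Over the whole set, KO against WT without Ang II gave 6 of 8 markers below 0 (49.5% of all genes were), with a median of -0.35 beside 0.01 over all genes compared. After normexp background correction the median was -0.18. Of the 8, 3 were at least 1.5-fold lower (Kdr, Cldn5 and Pecam1), a size that 13.0% of all genes reached in that direction. At 2-fold the count was 2, Kdr and Cldn5, beside 4.06% of all genes. No marker was at least 1.5-fold higher, beside 11.1% of all genes. Other pan-endothelial genes, such as Podxl (podocalyxin) at -0.88, the adhesion receptor Adgrl4 at -0.89 and Clec14a at -0.76, gave 12 of 15 below 0, with 7 at least 1.5-fold lower, 2 at least 1.5-fold higher and a median of -0.58. Thbd (thrombomodulin) was the main exception, at 1.08.

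With Ang II, 5 of 8 markers were below 0 in KO against WT (53.8% of all genes were), with a median of -0.12 beside -0.04 over all genes. After normexp it was -0.22. Of the 8, 2 were at least 1.5-fold lower (Cldn5 and Eng), beside 15.8% of all genes, and none was 2-fold apart in either direction, beside 7.15% of all genes. With both probes of Vwf averaged the median was 0.02, on the other side of 0. Cldn5 was the marker that both genotype comparisons shared at this size. Those comparisons use different arrays. Among other pan-endothelial genes 13 of 16 were below 0, with 5 at least 1.5-fold lower and a median of -0.29.

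On 4 of the 8 measured markers both KO arrays were below both WT arrays (Pecam1, Kdr, Eng and Cldn5), an order that 31.2% of all genes had. Flt1 was the marker with both KO arrays above both WT arrays, an order of 32.6% of all genes. No marker had both Ang II arrays on 1 side of both arrays without Ang II, beside 6.79% of genes with both below and 8.84% with both above. The untreated KO array held the lowest value of 4 markers (Pecam1, Cdh5, Tek and Cldn5), whereas 25.3% of all genes were lowest there.

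For Ang II in WT, Kdr was the only marker at least 1.5-fold apart in either direction, beside 13.7% of all genes. It was lower, as were 4.89% of all genes at that size and 0.999% at 2-fold. The median of the 8 markers was -0.20 beside 0.04 over all genes, with 5 of 8 below 0 (44.9% of all genes were) and Eng highest at 0.57. After normexp it was -0.055. Other pan-endothelial genes had a median of 0.23, and Plvap, the diaphragm protein of fenestrated endothelium, was 2.22-fold lower. For Ang II in KO no marker was 1.5-fold apart, beside 7.16% of all genes, so this count is near the background. The ratios ran from -0.22 for Flt1 to 0.45 for Cldn5 with a median of 0.13. Cldn5, Tek (0.40) and Cdh5 (0.37) lay above the 90th percentile of all genes, 0.33, and no marker lay below the 10th, -0.33. After normexp these ratios were 0.12 for Cldn5, 0.37 for Tek and 0.13 for Cdh5. Of the 8 markers 4 were below 0, as were 51.1% of all genes. The difference of the 2 responses (KO minus WT) was 1.09 ± 0.29 for Kdr, 0.60 ± 0.29 for Pecam1, 0.60 ± 0.37 for Cdh5 and 0.58 ± 0.29 for Tek, and -0.63 ± 0.29 for Eng. By this measure 3 of 8 markers were at least 1.5-fold higher beside 6.24% of all genes, and 1 was at least 1.5-fold lower beside 10.2%. After normexp only Kdr remained past that size, at 0.94. This difference uses all 4 arrays once, and with 1 array each it was not tested.

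**Figure D3:**
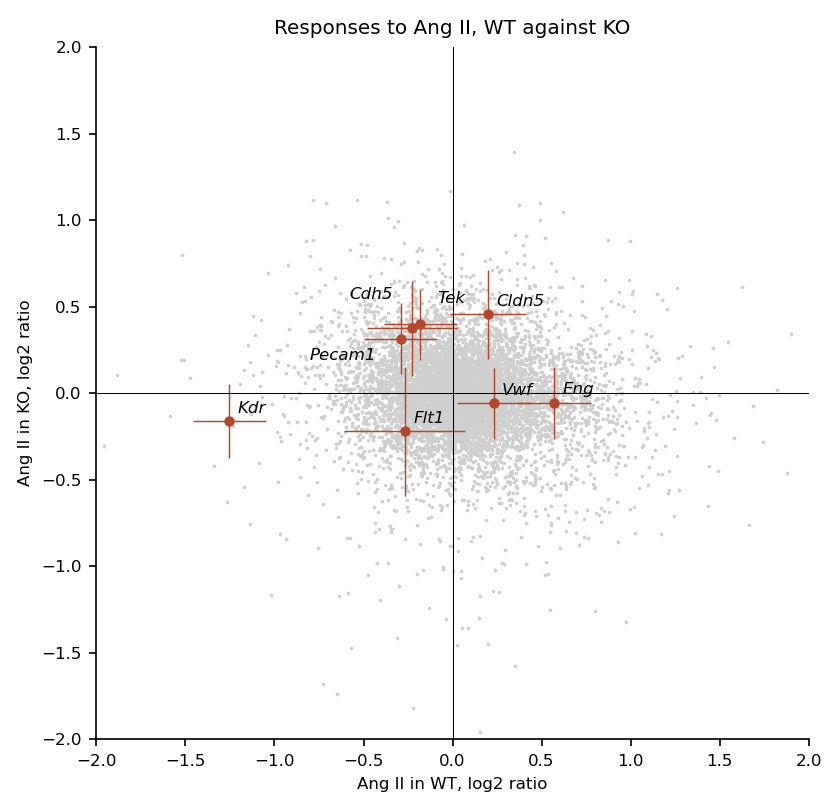
Ang II response in WT (x axis, log2 ratio) against Ang II response in KO (y axis, log2 ratio) for the 8600 genes measured on all 4 arrays (grey, with 4 outside the axes) and the 8 measured markers (red, bars of 1 combined scanner SE). Kdr stands at the left with -1.25 in WT and -0.16 in KO, and Eng at the right with 0.57 in WT and -0.06 in KO.

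An additive limma model of genotype and treatment was the one fit over arrays that the design allows, with 2 arrays on each side and 1 residual degree of freedom. Over 9387 genes it called no gene for genotype and none for Ang II at a Benjamini-Hochberg adjusted p of 0.05, that is 0% of genes for each, whereas 2453 genes for genotype and 360 for Ang II had an unadjusted limma p under 0.05. For genotype, Cldn5 was at -0.88 (SE 0.16, limma adjusted p = 0.106) and Kdr at -0.95 (SE 0.31, limma adjusted p = 0.167), both lower in KO. The other 6 markers had limma adjusted p-values between 0.311 and 0.983, with estimates from -0.39 for Pecam1 to 0.28 for Flt1. With limma's trend and robust options, 1273 of the 9387 genes were called for genotype and 1 of the 8 markers, so the count of markers is near the background. The marker called was Cldn5 (limma adjusted p = 0.0397), with Kdr at a limma adjusted p of 0.0643. For Ang II the limma adjusted p was 1.0 for each marker, and the largest estimate was -0.71 (SE 0.31) for Kdr. The model takes any true difference of Ang II responses as error.

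Markers of other vessel wall cells also stood apart by genotype. All 11 smooth muscle markers were well above background on all 4 arrays, and their summed level was 144 to 154 in WT and 202 to 221 in KO (in multiples of the 75th percentile). Of the 11, 10 were above 0 in KO without Ang II (50.5% of all genes were), with a median log2 ratio of 0.61. Cnn1 (calponin) was at 1.15, Myl9 at 1.05 and Tpm2 at 0.81, against -1.11 for Des (desmin). Fibroblast markers, 8 of 8 detected, summed to 735 to 761 in WT and 415 to 464 in KO. Without Ang II, 6 of the 8 were below 0 in KO and 2 above 0, with a median ratio of -0.51. Macrophage markers, 10 of 11 detected with Mrc1 not well above background, summed to 63.2 to 70.9 in WT and 34.2 to 41.3 in KO. All 10 were below 0 without Ang II (49.5% of all genes were), with a median of -0.85. The 8 measured endothelial markers summed to 24.6 to 26.4 in WT and 20.4 to 22.0 in KO, whereas the 16 other pan-endothelial genes summed to 350 to 358 in WT and 376 to 431 in KO. Such sums are carried by the brightest probes. In the last sum these were Aqp1, at 7.98 in untreated WT and 8.23 in untreated KO, and Thbd, at 5.12 and 6.20. Of the 15 other pan-endothelial genes compared without Ang II, 12 were below 0. The part of these cell type markers in the marker ratios above was not tested.

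**Figure D4:**
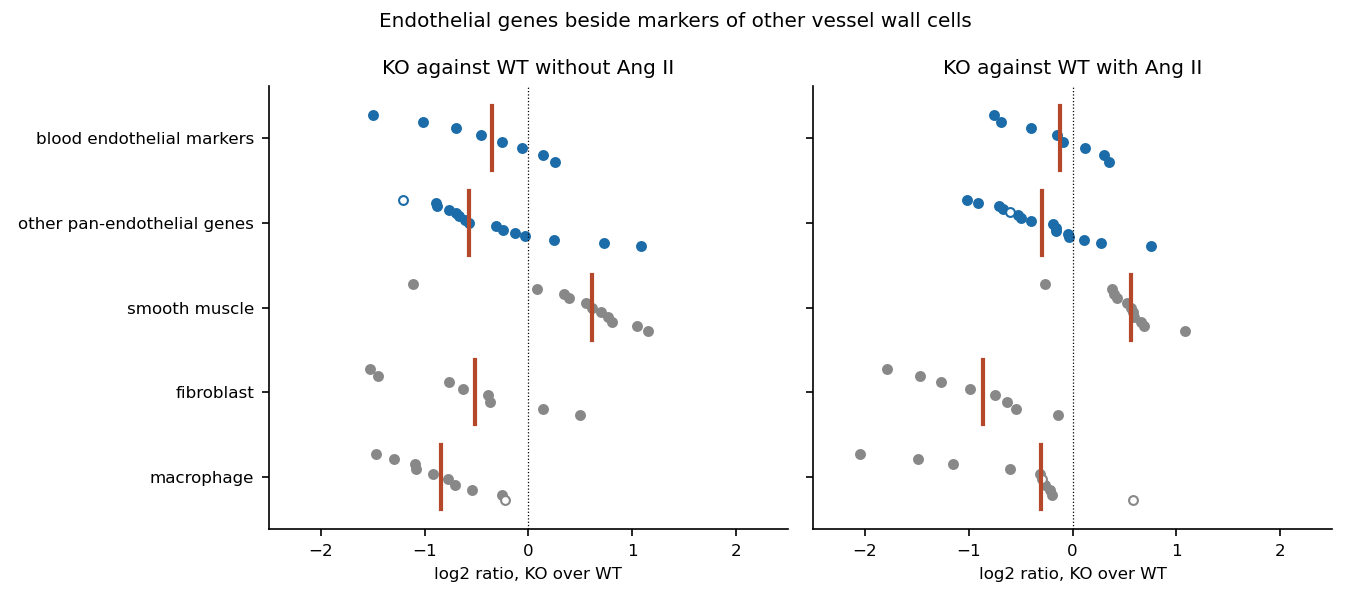
Log2 ratio of KO over WT (x axis) without Ang II (left) and with Ang II (right) for the 8 measured blood endothelial markers, other pan-endothelial genes, smooth muscle, fibroblast and macrophage markers (rows), with 1 point per gene. Open points are bounds where 1 side was not well above background, and the bar is the median of each row. Endothelial medians are -0.35 and -0.12, smooth muscle medians 0.61 and 0.56.

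Platelets also carry PECAM1 and VWF, and of 5 platelet markers on the array only Pf4 was well above background, at 1.88, 1.47, 1.13 and 1.19 in untreated WT, treated WT, untreated KO and treated KO, while Ppbp, Gp9, Gp1ba and Treml1 were not. Lymphatic endothelium carries PECAM1 and TEK as well as its own genes. Its markers Lyve1 and Reln were well above background on both WT arrays and on neither KO array, Ccl21 on untreated WT alone, and Prox1 on all 4, at 7.46 and 7.89 in WT and 6.98 and 6.92 in KO. Of the 6 lymphatic markers compared without Ang II, 4 of them at a bound, 4 were below 0 in KO and 2 above 0, the highest at 1.68. With Ang II all 5 compared were below 0, 3 of them at a bound. The summed level of the 6 lymphatic markers was 204 in untreated WT, 267 in treated WT, 160 in untreated KO and 144 in treated KO. Most of each sum came from Prox1, the brightest probe, so it says little of the other lymphatic markers. The part of lymphatic markers in the levels of the shared genes was not tested.

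The median profile of the 8 measured markers, each centred on its own mean over the 4 arrays, was 0.16 in untreated WT, 0.05 in treated WT, -0.20 in untreated KO and -0.01 in treated KO. Tek lay nearest to it (root mean square distance 0.08 over the 4 arrays), followed by Pecam1 (0.12) and Cdh5 (0.15), and Kdr lay farthest (0.56). The 5 other genes nearest to the median profile were Sh2b1 at 0.0054, Hnrnpm at 0.017, Nab2 and Rad21 at 0.023 and Vta1 at 0.024. With 4 arrays such likeness is weak: 729 of the 8600 genes lay within 0.1 of the profile.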

How the data were processed

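RNA of the 4 groups was labelled with Cy3 and hybridised to Agilent arrays, 1 per group. The authors deposited scanner files whose processed signal is an intensity, which per the file headers was background-subtracted and detrended spatially, and a table of log2 values. The deposited log2 values equalled the log2 processed signal plus a constant per array within 0.01 for 98.3% to 98.4% of probes (array medians 2.29, 2.22, 2.27 and 2.11); the sources used here do not say how the authors set the constants. Feature Extraction is version 12.1.1.1 in the submitters' processing notes and 10.7.1.1 in the file headers.

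Control and outlier spots were left out (301 to 372 outlier spots per array), spots of a probe were averaged, and 45594 probes were scaled by the 75th percentile. Replicate spots had a median SD of 0.0689 to 0.0786 log2 units, and precision is limited by the number of arrays. Accessions were matched without versions to a RefSeq gene table (GRCr8), used for names only: 21107 probes had a name and 24487 had none. A gene took its brightest probe. The size rules and limma 3.58.1 in R 4.3.3 (adjusted p under 0.05, genes detected above background on 2 or more arrays) were tried on simulated data with the same noise level for every gene. Such data cannot show how they perform on these arrays. Other steps used Python 3.11.15, numpy 2.4.6, pandas 2.3.3 and matplotlib 3.10.9. Alternatives changed the scaling, background correction, outlier spots, probe choice, dim values, filter, value table and limma options. The files used hold no mean signal column, so normexp (offset 50) took the median signal.

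Named genes were the 10 markers, Prkcb, up to 4 genes per list by size of ratio and the 5 genes nearest the markers' profile. Some genes, among them Erg, Acvrl1, Angpt2 and Edn1, were named outside this rule. The markers and the 23 lists were chosen with earlier results of these data known. Where nothing says that samples came from separate animals, p-values measure only the spread between these arrays.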

Additional observations from a re-analysis of the deposited data

Results flagged for a closer look

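In 5 of the 8 measured markers the Ang II response had opposite signs in WT and KO vessels, as it had in 53.8% of the 8600 genes measured on all 4 arrays, so the count is near the background. After normexp background correction the count was 3 (Pecam1, Cdh5 and Tek), and with the probes of a gene averaged it was 4, without Vwf. None of these differences was tested, since each response rests on 1 array per group. The response in KO minus that in WT was 0.60 log2 units for Pecam1 (-0.29 in WT and 0.31 in KO), 0.60 for Cdh5 (-0.23 and 0.37) and 0.58 for Tek (-0.18 and 0.40), which were all lower with Ang II in WT and higher in KO. The opposite order held for Eng, with a difference of -0.63 (0.57 in WT and -0.06 in KO), and for the brighter probe of Vwf, with -0.29 (0.23 and -0.06). The dimmer Vwf probe had 0.06 in WT and 0.31 in KO, which are of 1 sign. The KO responses of Eng and Vwf were smaller than their scanner errors of 0.21 and 0.20. So were the WT responses of Cdh5 and Tek, with scanner errors of 0.25 and 0.20. Over the same genes the median difference was -0.05, with 10% of genes below -0.59 and 10% above 0.47.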

How the results depend on the processing

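No paired analysis was possible because each group has 1 array and every array carries replicate number 1, and no array could be left out in turn. Of 360 single marker ratios under the alternatives, 333 stayed within the spread allowed, 27 lay outside it and 7 changed sign. Most of those outside it arose under normexp background correction. With it the marker median was nearer to 0 in 4 of the 5 comparisons, at 0.084 for Ang II in KO (against 0.13), -0.18 for KO against WT without Ang II (against -0.35), -0.055 for Ang II in WT (against -0.20) and 0.080 for the difference of responses (against 0.42), and farther from 0 for KO against WT with Ang II, at -0.22 (against -0.12). The markers past 1.5-fold numbered 0 for KO against WT with Ang II (against 2) and 1 for the difference of responses (against 4). The offset of 50 added in normexp shrinks the ratios of dim probes by itself. Smaller ratios under normexp therefore cannot be credited to background correction alone. Averaging the probes of a gene turned the median of KO against WT with Ang II from -0.12 to 0.016. The limma trend and robust options called 1273 genes for genotype, where the plain fit called 0. Kdr ran from -1.51 to -1.28 in untreated vessels for KO against WT and from -1.30 to -1.06 for Ang II in WT, and Cldn5 from -1.04 to -0.22 for the first. Signal over background limits Tie1, Sox17 and the second Flt1 probe, for which no ratio was formed.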

Other observations

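Genes that activated endothelium makes gave further values outside the comparisons above. Of 9 on the array, 7 were detected above background at least once, and the leucocyte adhesion genes Sele and Selp never were. Edn1, the endothelin precursor, was well above background in treated WT alone, at -0.37, which is at least 8.55-fold higher than in untreated WT and at least 6.78-fold higher than in treated KO. Apln, which encodes the vascular peptide apelin, was lower on both KO arrays than on both WT arrays, with ratios of -1.15 both without and with Ang II. Icam1 and Vcam1, the receptors for leucocyte integrins, had ratios of 0.46 and 0.52 without Ang II and -0.19 and 0.22 with it. Among venous genes, Nr2f2, the factor that sets venous identity, was at -0.83 without Ang II and -0.11 with it, with Ephb4 at -0.12 and -0.23. Edn1 was named after its values were seen, and each value rests on 1 array per group.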
